A study of Mus musculus with 10 samples.

Results

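The nuclear genes for the subunits of oxidative phosphorylation were followed in beta cells of NOD mice, the inbred strain that develops autoimmune diabetes. Members were the protein-coding genes whose symbols begin with Ndufa, Ndufb, Ndufc, Ndufs or Ndufv, the exact symbols Sdha to Sdhd, and those beginning with Uqcr, Cox4 to Cox8 or Atp5, with the Ndufaf assembly factors left out. This gave 86 of the 56748 gene identifiers (85 symbols, since Atp5o has a second identifier): 38 of complex I, 4 of complex II, 8 of complex III, 18 of complex IV and 18 of complex V. Of these, 79 had enough counts to be among the 15942 genes tested, and 7 had too few. The rule leaves out some genes of the same machinery, among them the ATP synthase inhibitor gene Atpif1, Usmg5 and Ndufb1-ps, which RefSeq lists as the coding gene Ndufb1. It also keeps Ndufa4, a complex IV subunit by its place in the enzyme, with complex I.

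The islets came from males of 6 to 8 weeks and were cultured untreated (libraries 1 to 5) or for 48 hours with lipopolysaccharide at 50 ng/ml (LPS, libraries 6 to 10), a bacterial cell wall component sensed by Toll-like receptor 4. They were then dispersed with trypsin, beta cells were sorted by flow cytometry, and their RNA was sequenced. Each group has 5 libraries, which the labels call independent without naming the animals behind them, so p-values measure the spread between these samples. Strain, sex and the sort are common to all 10 libraries. Total gene counts ran from 18465188 to 27379892 per library, and no tested measure of library composition differed between the groups (two-sided exact permutation p from 0.0635 to 0.786). The beta cell markers Ins1 and Ins2 had mean levels of 36480 and 70380 CPM (counts scaled to a common library total) in untreated libraries. Of 10 beta cell markers 3 fell with LPS (Slc2a2, Slc30a8 and Ucn3). Hormone transcripts of other islet cells were also present. Means were 8931 CPM untreated and 6558 CPM with LPS for Gcg (alpha cells), 7068 and 6637 for Sst (delta cells) and 1558 and 783 for Ppy (PP cells). Of the 5 alpha and 3 delta markers 0 had fold changes above 0, and 0 passed the test. Among markers of other cells the ductal gene Muc1 (log2 fold change 0.80) and the macrophage gene Cd68 (0.68; edgeR adjusted p = 0.0512 without untreated 3) rose. Of the 5 ductal markers 4 had enough counts to be tested, and Krt19 (0.75), Krt7 (0.16) and Sox9 (0.01) did not pass. Of the 7 macrophage markers 2 had enough counts to be tested, and the other one, C1qa (-0.35), did not pass. Ppy (-0.99) and the endothelial gene Kdr (-3.12) fell at an adjusted p of 0.0473 each, which 8 and 9 of the 10 fits without 1 library lost (up to 0.132 and 0.126). In such bulk samples fewer cells of a type and less RNA per cell cannot be told apart.

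Oxidative phosphorylation joins the respiratory chain of the inner mitochondrial membrane to ATP synthesis. Complexes I and II pass electrons from NADH and succinate to ubiquinone, complex III passes them to cytochrome c and complex IV to oxygen, while complexes I, III and IV pump protons that drive the ATP synthase, complex V. Most subunits are encoded in the nucleus and a small set in mitochondrial DNA. In beta cells the ATP made from glucose closes potassium channels and so couples glucose to insulin secretion.

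No subunit gene of any complex passed the test of LPS against untreated. In edgeR's quasi-likelihood test with Benjamini-Hochberg adjustment over all genes, 0 of the 79 members passed an adjusted p of 0.05, beside 3.77% of all genes tested (601 of 15942). At an unadjusted p under 0.05 there were 11 members (13.9%), beside 15.3% of all genes. DESeq2 and limma-voom also called 0 members. In none of the 79 did the 5 LPS libraries lie wholly above or below the 5 untreated ones, a separation that 5.71% of all genes showed. The fitted differences were small, and the 95% intervals of the fold change lay within 2-fold either way for 78 members and within 1.5-fold for 75. The exceptions to the narrower bound were Ndufa4l2, Ndufs5, Cox6a2 and Atp5l.

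The small differences leaned upward. LPS values were above untreated ones for 66 of 79 members (83.5%, beside 47.9% of all genes), with a median log2 fold change of 0.08, beside -0.01 over all genes. By complex the medians were 0.07 for I (31 of 38 above 0), 0.09 for II (3 of 4), 0.08 for III (8 of 8), 0.14 for IV (11 of 12 tested) and 0.12 for V (13 of 17 tested). Genes of one pathway vary together within a library, so these shares describe the 10 libraries and carry no test. The lean was smaller without 1 library: leaving out LPS 10, the median of the members was 0.02, that of complex I was -0.02, and 45 of 79 lay above 0. The lowest medians of complexes II, III, IV and V with any 1 library left out were 0.05, 0.04, 0.07 and 0.04. Without untreated 5 the median of the members was 0.13, with 66 above 0. In edgeR with 1 surrogate variable and all libraries it was 0.06, with 61 above 0. In limma-voom with sample quality weights it was 0.10, with 65 above 0.

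**Figure D1:**
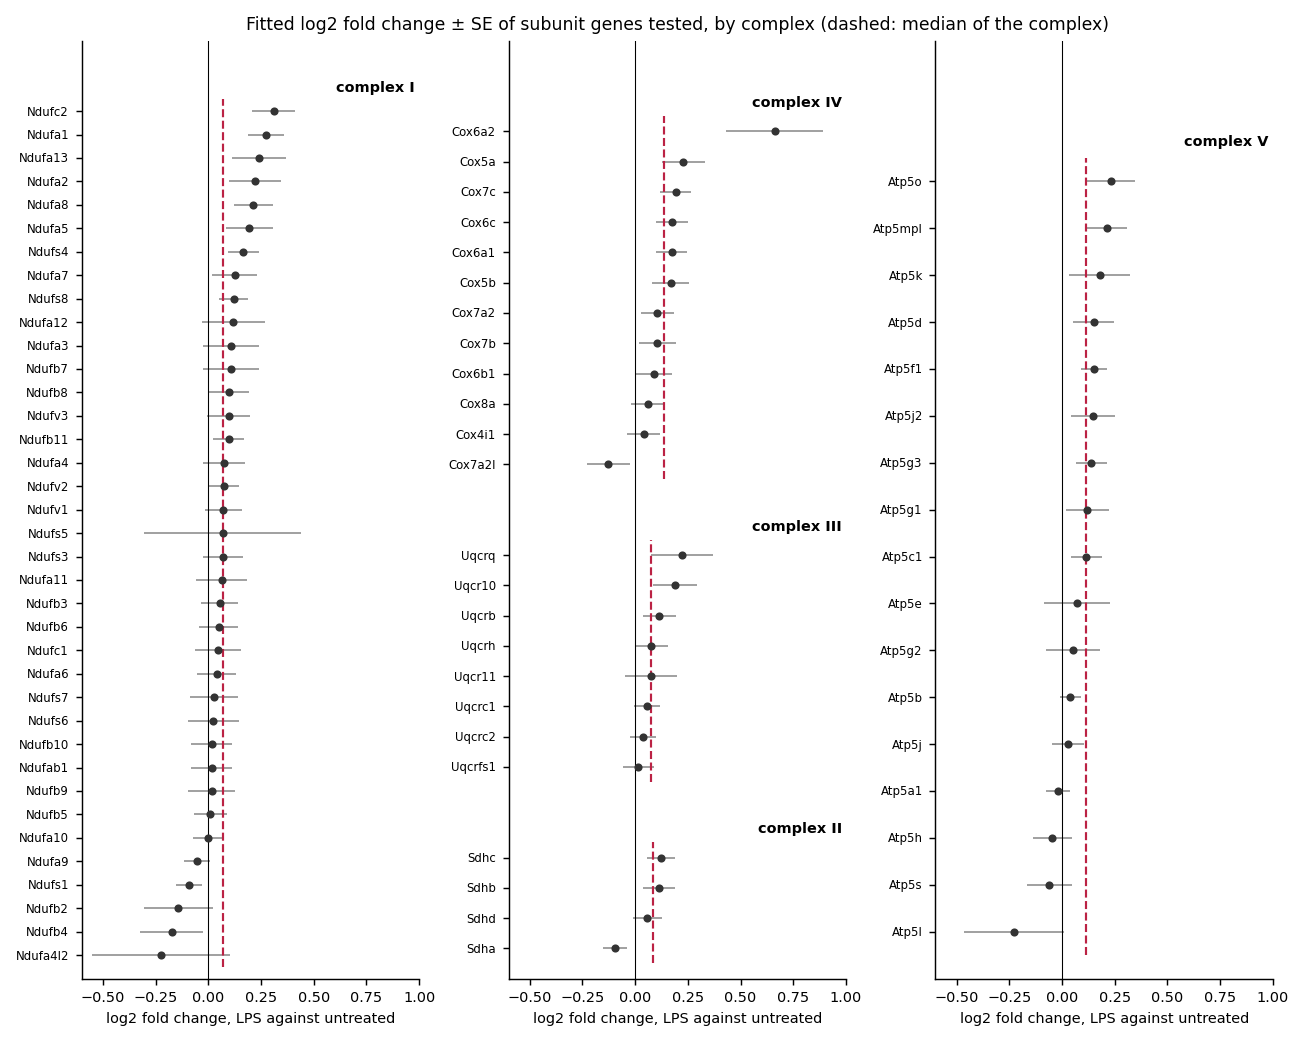
Fitted log2 fold change (LPS against untreated, x axis) with its standard error for the tested subunit genes reported here, grouped by complex, with the median of the complex as a dashed line. Apart from Cox6a2 at 0.66 the points lie between -0.23 and 0.31, and the medians run from 0.07 to 0.14.

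Summed over all members, the subunit transcripts made up 5777, 5647, 5481, 5742 and 6242 CPM in untreated libraries 1 to 5, and 5717, 5749, 5768, 6142 and 6834 CPM in LPS libraries 6 to 10. The groups overlapped: LPS 6 to 9 lay within the untreated range, and LPS 10 alone exceeded untreated 5. Means were 5778 ± 284 and 6042 ± 476 CPM (SD, n = 5 each). Complex V was the largest sum in every library (2005 to 2175 CPM untreated, 2015 to 2351 LPS), followed by complex I (1575 to 1890 and 1595 to 2078) and complex IV (933 to 1114 and 977 to 1233). Complex III summed to 557 to 642 CPM in untreated and 602 to 728 CPM in LPS libraries. Complex II was the smallest, at 422 ± 15.9 and 422 ± 13.6 CPM.

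**Figure D2:**
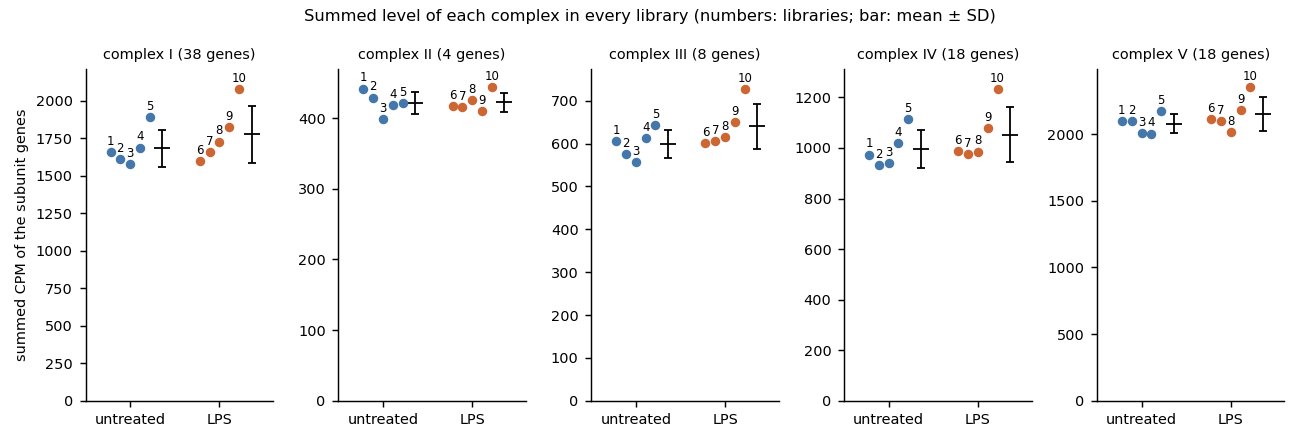
Summed CPM (y axis) of the subunit genes of each complex in every library, numbered 1 to 5 (untreated) and 6 to 10 (LPS), with the group mean ± SD. The groups overlap in all 5 complexes, and LPS 10 is the highest library in each.

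The members were high or low together from library to library. Relative to their mean over the 10 libraries, 74 of the 79 were above it in LPS 10, and 65 each in untreated 5 and LPS 9, while 8 were above it in untreated 3. Of the 79, 57 had their highest value in LPS 10 and 11 in untreated 5. Genes for cytosolic ribosomal proteins were also high in these 3 libraries: their median log2 deviation was 0.29 in LPS 10, 0.15 in untreated 5 and 0.15 in LPS 9, where that of the subunit genes was 0.28, 0.13 and 0.08. In LPS 8 (-0.12 against 0.01) and untreated 4 (0.06 against -0.05) the signs were opposite. The 40 shorter members deviated more than the 39 longer ones in LPS 10 (median 0.33 and 0.21), and the fitted fold change was 0.09 in median for shorter and 0.07 for longer members (Spearman's rho of -0.33 between transcript length and log2 fold change, over 79 genes that share libraries). What part transcript length or these libraries have in the upward lean was not tested.

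Levels between genes were compared as CPM per kilobase of transcript, and spanned 2 orders of magnitude. The length was that of a single annotated transcript per gene, which may not be the one expressed, so the order of genes and complexes depends on it. In untreated cells the highest were the catalytic ATP synthase subunit gene Atp5b (270 CPM per kilobase), the small complex III subunit gene Uqcrq (268), Cox8a (247), the ATP synthase epsilon subunit gene Atp5e (230) and Cox6a1 (206). Neighbours in this order did not differ beyond the spread of the libraries. Complex V had the highest median level (127 CPM per kilobase), then complex IV (102, over its 12 tested members), III (81.7), II (56.2) and I (47.6). Complex I ran from 1.92 for Ndufa4l2 to 116 for Ndufa6, with Ndufs5 (6.78), Ndufb4 (13.0) and Ndufb2 (14.8) next to the bottom. The lowest tested complex V members were Atp5o (13.9), the gene of the stalk subunit OSCP, and Atp5s (9.22), a coupling factor now named Dmac2l. Pseudogene copies of near-identical sequence (described below) cover 76.7% of the Atp5o, 60.8% of the Ndufs5 and 40.2% of the Ndufb4 transcript. Reads can be shared with such copies, so the low levels of these genes are uncertain. Copies also cover 77.8% of the Atp5h and 72.2% of the Atp5l transcript, at untreated levels of 142 and 133 CPM per kilobase. What part copies have in the low levels was not tested. Ndufa4l2, Ndufb2 and Atp5s have no such copy.

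**Figure D3:**
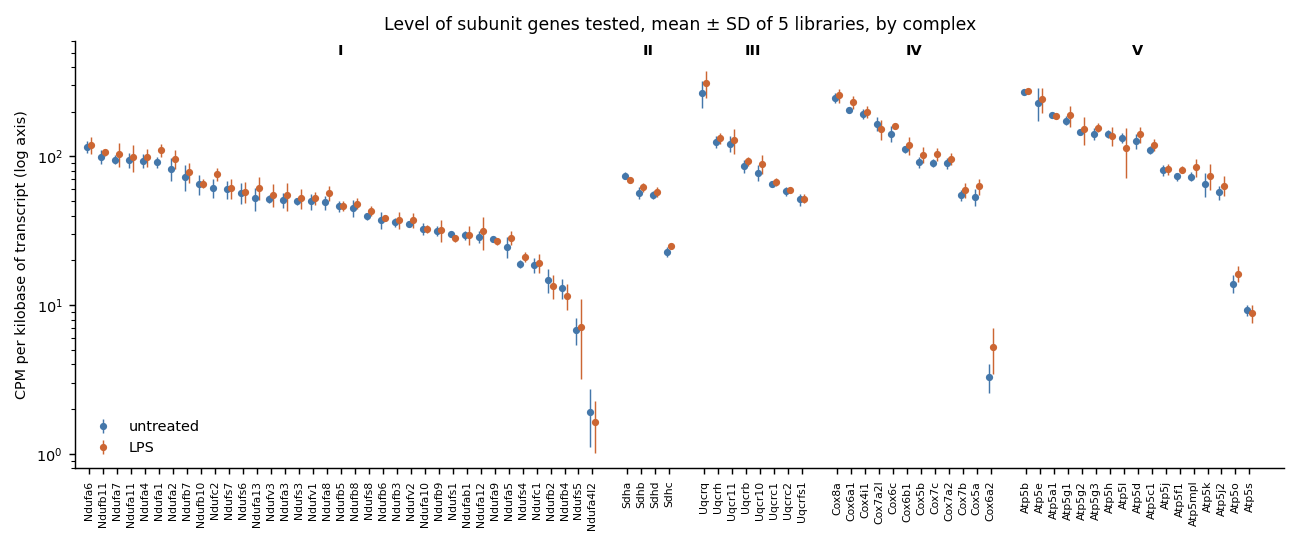
Level of the tested subunit genes reported here as CPM per kilobase of transcript on a log axis, mean ± SD of 5 untreated and 5 LPS libraries, ordered by the untreated level within each complex. The 2 groups lie close together for each gene, while genes within complex I range from 1.92 to 116.

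Complex I, the NADH dehydrogenase, held the member with the lowest adjusted p. Ndufa1, an X-linked gene for a small membrane subunit needed for assembly, stood at 40.2, 39.5, 34.7, 34.9 and 42.6 CPM in untreated and at 39.8, 44.1, 50.6, 46.5 and 50.8 CPM in LPS libraries. LPS 6 lay within the untreated range, and the other LPS libraries lay above it. The log2 fold change was 0.27 ± 0.08 (SE; edgeR adjusted p = 0.110; 95% interval 0.09 to 0.46). Ndufc2, another accessory membrane subunit, had 52.0, 36.5, 37.2, 41.3 and 42.9 CPM untreated and 49.7, 46.0, 49.9, 55.0 and 59.6 CPM with LPS. Only untreated 1 reached the level of the LPS libraries, and the log2 fold change was 0.31 ± 0.10 (edgeR adjusted p = 0.134). These calls depended on the fit. With sample quality weights limma-voom called Ndufa1 (0.33, adjusted p = 0.0185) and Ndufc2 (0.37, adjusted p = 0.0282), a fit that called 6.24% of all genes. With 1 surrogate variable edgeR called Ndufa1 (0.26, adjusted p = 0.0364) and 8.37% of all genes, and without untreated 1 it called Ndufc2 (0.40, adjusted p = 0.0237) and 3.86% of all genes.

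Core subunits of complex I, some of which carry the flavin or iron-sulphur clusters, had smaller differences. Ndufs1, the largest core subunit, had a mean of 77.5 ± 3.45 CPM untreated and 72.7 ± 4.37 CPM with LPS (log2 fold change -0.09). The NADH-binding subunit gene Ndufv1 (0.07), Ndufv2 (0.07), Ndufs3 (0.07), Ndufs7 (0.03) and Ndufs8 (0.12) lay slightly above 0. None of these passed an unadjusted p of 0.05. Ndufs4, an accessory subunit whose loss causes a Leigh-like disease in mice, had 29.8 to 34.7 CPM untreated and 33.2 to 40.7 CPM with LPS (0.17 ± 0.07, adjusted p = 0.289). Ndufa8 ran from 39.0 to 50.0 and from 42.3 to 58.1 CPM (0.21 ± 0.09, adjusted p = 0.293), again with overlap.

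Complex II is succinate dehydrogenase, which is also an enzyme of the citric acid cycle and has no subunit encoded in mitochondrial DNA. Its flavoprotein gene Sdha, the most abundant of the 4, had 230, 222, 211, 215 and 201 CPM in untreated and 204, 206, 202, 192 and 206 CPM in LPS libraries. All LPS libraries lay below untreated 1 to 4, but untreated 5 was below 4 of them, and the log2 fold change of -0.09 ± 0.06 did not pass (edgeR adjusted p = 0.469). The iron-sulphur subunit gene Sdhb (0.11) and the membrane anchor genes Sdhc (0.12) and Sdhd (0.06) were slightly above 0, with adjusted p of at least 0.407.

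All 8 complex III genes had fold changes above 0, and none reached an unadjusted p of 0.05. Uqcrq, the most abundant per kilobase, had 96.5, 91.2, 93.9, 117 and 144 CPM untreated and 103, 113, 111, 137 and 168 CPM with LPS. Untreated 4 and 5 reached into the LPS range, and the log2 fold change was 0.22 ± 0.15 (edgeR adjusted p = 0.539). The Rieske iron-sulphur protein gene Uqcrfs1 was the lowest of the complex at 0.02 ± 0.07 (63.1 to 80.4 CPM untreated, 64.6 to 78.1 CPM with LPS). The core protein genes Uqcrc1 (0.06) and Uqcrc2 (0.04) lay beside it.

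Complex IV, cytochrome c oxidase, had 5 of its 12 tested members at an unadjusted p under 0.05, beside 15.3% of all genes tested: Cox6a2, Cox7c, Cox6a1, Cox6c and Cox5a. These genes vary together, and LPS 10 was the highest library for all 5. In edgeR without LPS 10, 3 of all 79 members had an unadjusted p under 0.05, beside 11 with all libraries. The median fold change of complex IV was above that of complex V in edgeR (0.14 and 0.12). It was below that of complex V in DESeq2 (0.10 and 0.11) and without a filter on low counts (0.11 and 0.12). The DESeq2 and unfiltered fits included 84 members in place of 79. Cox7c had 50.7, 46.3, 45.9, 49.1 and 52.3 CPM untreated and 54.5, 49.4, 56.7, 54.4 and 64.0 CPM with LPS. All but LPS 7 were above the untreated range, at 0.19 ± 0.07 (edgeR adjusted p = 0.210). Cox6a1 had 117, 111, 116, 115 and 127 CPM untreated and 120, 127, 130, 130 and 154 CPM with LPS (0.17 ± 0.07, adjusted p = 0.261), and untreated 5 lay among the LPS libraries. Cox5a, which with Cox4 forms the first stage of assembly around the mitochondrially encoded core, had 29.4 to 41.0 and 36.4 to 48.5 CPM (0.23 ± 0.10, adjusted p = 0.307). Cox6c had 63.5 to 85.0 and 77.9 to 86.0 CPM (0.17 ± 0.08, adjusted p = 0.302). Cox4i1 was at 144 ± 11.9 and 148 ± 14.2 CPM (0.04 ± 0.08). Cox7a2l, a supercomplex factor gene, had the lowest fold change of the complex at -0.13 ± 0.10.

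Several complex IV subunits have isoforms that differ between tissues, with forms of heart and skeletal muscle, testis or hypoxic cells. In these beta cells the widely expressed isoform made up nearly all of each pair, per length. Cox6a2, the muscle isoform of Cox6a1, had 2.18, 2.03, 1.90, 1.98 and 3.12 CPM untreated and 3.12, 2.68, 2.85, 3.44 and 5.64 CPM with LPS. Untreated 5 overlapped the LPS libraries, and the log2 fold change of 0.66 ± 0.23 was the highest of all members (edgeR adjusted p = 0.165; 95% interval 0.16 to 1.16). Without LPS 10 it was 0.43 (adjusted p = 0.351). Its share of the Cox6a pair was 1.57 ± 0.26% untreated and 2.17 ± 0.49% with LPS. The 5 skeletal and heart muscle markers summed to 2.88 to 8.54 CPM in untreated and 2.47 to 5.22 CPM in LPS libraries, and these sums overlapped. Nearly all of this was Acta1, at means of 4.81 and 3.13 CPM of summed means of 4.88 and 3.16 CPM. The muscle creatine kinase gene Ckm was at 0 to 0.127 CPM.

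The other minor isoforms were low beside their partners. Cox7a1, of heart and muscle, made up 0.585 ± 0.247% of its pair with Cox7a2 in untreated and 0.514 ± 0.339% in LPS libraries, and the testis isoform Cox6b2 0.443 ± 0.187% and 0.428 ± 0.106% of its pair with Cox6b1. Cox4i2, the lung and hypoxia isoform, had 5 counts summed over the untreated libraries and 2 over the LPS libraries. Cox7b2 had 1 and 2 counts, Cox8b 1 and 0, and Cox8c 0 and 0. With 3 counts as the limit for a group at 0, levels of up to 0.0247 CPM in untreated and 0.0268 CPM in LPS cells would go unseen (counting error only). The second Atp5o identifier also had 0 counts, and these genes and Cox7a1 and Cox6b2 make up the 7 that were not tested. Ndufa4l2, the hypoxia-inducible relative of Ndufa4, made up 1.96 ± 0.60% and 1.63 ± 0.59% of its pair (log2 fold change -0.22 ± 0.33).

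Complex V, the ATP synthase, held the most abundant members. Atp5b had 527, 533, 511, 508 and 507 CPM untreated and 538, 533, 522, 523 and 542 CPM with LPS, a log2 fold change of 0.04 ± 0.05 (edgeR adjusted p = 0.791; 95% interval -0.07 to 0.15). The alpha subunit gene Atp5a1 was as steady, at 472 ± 19.7 and 465 ± 22.5 CPM (-0.02 ± 0.06). In the peripheral stalk, Atp5f1 (subunit b) had 126, 121, 107, 121 and 114 CPM untreated and 129, 131, 124, 126 and 142 CPM with LPS. Only untreated 1 was as high as the lowest LPS libraries, and the log2 fold change was 0.15 ± 0.06 (adjusted p = 0.256). Atp5o had 10.7 to 14.5 and 12.01 to 15.9 CPM (0.23 ± 0.12, adjusted p = 0.376), and Atp5mpl, a small membrane proteolipid, 24.2 to 29.2 and 25.5 to 37.3 CPM (0.21 ± 0.10, adjusted p = 0.310). The c ring is encoded by 3 genes with the same mature product. Atp5g1 gave 37.6 ± 1.496% of their summed level per length in untreated and 38.0 ± 2.19% in LPS libraries, Atp5g2 31.7 ± 1.36% and 30.3 ± 3.95%, and Atp5g3 30.7 ± 1.92% and 31.8 ± 3.70%. Near-identical pseudogene copies cover 100% of the Atp5g2 and 69.0% of the Atp5g1 transcript, so these shares are uncertain. Both genes were lowest in LPS 8 (described below), and the Atp5g2 share ran from 23.9 to 34.8% among LPS libraries.

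**Figure D4:**
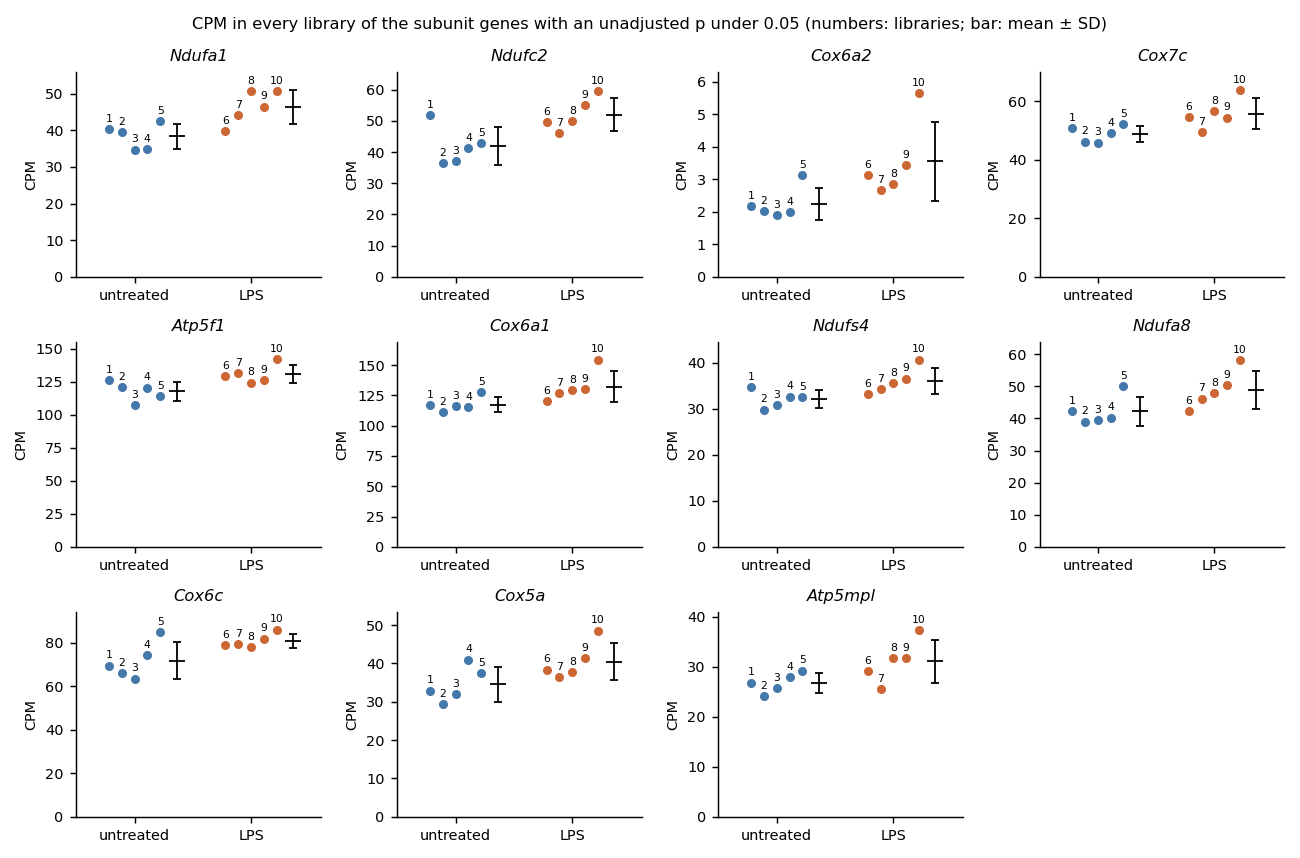
CPM (y axis, from 0) in every library of the 11 members with an unadjusted p under 0.05, with libraries numbered 1 to 5 (untreated) and 6 to 10 (LPS) and the group mean ± SD. In each gene at least 1 untreated library overlaps the LPS range, and LPS 10 is the highest library of all 11.

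LPS 8 stood apart for a subset of members. It was the lowest of the 10 libraries for 8 members, Ndufs5, Atp5l, Atp5g2, Ndufb4, Ndufa12, Cox7a2l, Atp5g1 and Ndufab1, and for no other. Ndufs5, an accessory subunit of complex I, had 3.69, 2.64, 4.18, 3.01 and 4.27 CPM untreated and 3.61, 4.41, 0.713, 3.44 and 6.38 CPM with LPS. Atp5l, subunit g of the ATP synthase membrane part, had 78.6, 74.9, 64.4, 69.8 and 73.4 CPM untreated and 66.0, 66.4, 22.6, 75.1 and 78.9 CPM with LPS. LPS 8 was thus below every other library for both, by 2.33 and 1.64 on the log2 scale relative to the median of the other LPS libraries (0.1 CPM added). The fold change of Atp5l was -0.23 ± 0.24 over all libraries, the lowest of complex V, and -0.02 without LPS 8. That of Ndufs5 was 0.07 ± 0.37 and 0.33 without LPS 8.

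All 8 have annotated pseudogene copies of near-identical sequence (at least 95% identity over at least 75 bases), as do 23 of the 79 tested members. A read from a stretch shared with a copy can align to both places, so counts of these members are uncertain. The stretches below set 2 of them beside their copies. Each was picked as the first 90 aligned coding bases with the fewest differences, but at least 1, so other parts may differ more. Shown are the first 90 coding bases of Ndufs5 and coding bases 40 to 129 of Atp5l. Beside them are the processed pseudogenes BC002163 (chromosome 16) and Gm4853 (chromosome X), all from GENCODE M21 transcripts on GRCm38. Capitals mark the base that differs (T81C and A9G, with positions counted from 1 at the first base shown and the gene's base given first).
Ndufs5: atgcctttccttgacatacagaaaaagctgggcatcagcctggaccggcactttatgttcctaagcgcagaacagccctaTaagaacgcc
BC002163: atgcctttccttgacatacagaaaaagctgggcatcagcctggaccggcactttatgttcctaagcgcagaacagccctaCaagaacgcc
Atp5l: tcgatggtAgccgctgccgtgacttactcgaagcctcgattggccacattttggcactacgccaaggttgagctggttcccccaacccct
Gm4853: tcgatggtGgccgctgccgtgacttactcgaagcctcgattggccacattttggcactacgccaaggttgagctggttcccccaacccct

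Over the whole alignment Ndufs5 and BC002163 were 99.4% identical across 319 bases, and Atp5l and Gm4853 96.7% across 394 bases. BC002163 received more reads than the gene, 14.9 CPM in LPS 8 against 17.6 to 18.3 CPM in the other LPS libraries and 12.2 to 19.3 CPM in untreated ones. Gm4853 received 0.190 CPM in LPS 8 and 0.0976 to 0.661 CPM elsewhere. The copies Gm6969 of Cox7a2l (49.3 CPM, others 55.3 to 75.7) and Gm15920 of Ndufa12 (7.94 CPM, others 8.16 to 12.02) were themselves lowest in LPS 8. Of the 22 members with a copy and a mean of at least 5 CPM (Ndufs5 was below that), 6 (27.3%) were more than 0.3 below the other LPS libraries on the log2 scale in LPS 8, against 0 of 54 members without a copy. Other protein-coding genes showed the same split in LPS 8, 12.9% of 1175 with a copy and 1.85% of 9132 without. In that library processed pseudogenes held 0.202% of gene counts (0.243 to 0.306% in the others), and reads aligned to more than 1 place made up 6.02% (4.89 to 6.10%). What lowered these members in LPS 8 was not tested.

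**Figure D5:**
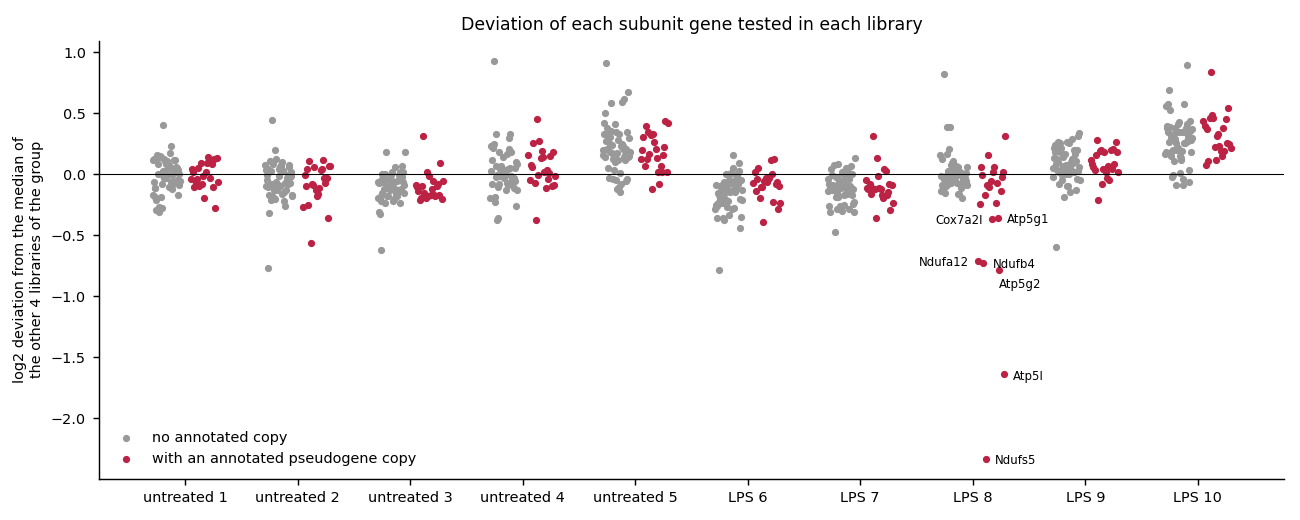
Log2 deviation (y axis) of each tested subunit gene in each library from the median of the other 4 libraries of its group, with genes that have an annotated pseudogene copy in red and the others in grey. In LPS 8 the low points named, down to -2.33 for Ndufs5, all have a copy, while untreated 5 and LPS 10 are shifted upward in both kinds of gene.

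Promoters of the members were searched for sites of factors known to control respiratory genes. RefSeq windows of 250 bases before to 50 bases after the start (GRCm38.p6) matched 69 of the 85 symbols. The letters GCGCATGC of NRF1, on either strand, were in 10 of the 69 (14.5%), beside 3.93% of all protein-coding genes with a window. Those of YY1, AAGATGGCG, were in 7 (10.1% beside 2.14%), and those of the ETS factor GABP, CCGGAAGT, in 5 (7.25% beside 5.69%). A match is a description of sequence, not a shown site. Members with the NRF1 letters were Atp5g2, Atp5k, Atp5l, Cox6a1, Ndufa11, Ndufa6, Ndufa8, Sdhb, Uqcr11 and Uqcrc1, and those with the YY1 letters were Atp5j, Atp5j2, Ndufa9, Ndufc1, Ndufs4, Ndufs6 and Ndufs7. One window is shown for each arrangement, with the motif in capitals: Uqcr11 holds the GABP and, on the other strand, the NRF1 letters (chr10:80406803-80406902), Cox6a1 the NRF1 letters on both strands (chr5:115349066-115349165) and Ndufs4 the YY1 letters (chr13:114388045-114388074), all on the minus strand.
Uqcr11: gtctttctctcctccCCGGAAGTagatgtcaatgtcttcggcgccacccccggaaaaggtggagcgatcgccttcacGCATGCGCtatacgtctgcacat
Cox6a1: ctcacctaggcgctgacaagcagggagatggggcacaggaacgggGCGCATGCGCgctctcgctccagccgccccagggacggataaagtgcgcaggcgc
Ndufs4: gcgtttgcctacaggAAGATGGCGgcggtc

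The factors themselves were expressed and did not pass the test. Nrf1 stood at 44.0 and 45.7 CPM (log2 fold change 0.05), Gabpa at 33.1 and 30.8 (-0.11) and Yy1 at 85.6 and 89.1 (0.06). The mitochondrial transcription factor gene Tfam was at 24.9 and 25.7 (0.04). The coactivator gene Ppargc1a, a regulator of mitochondrial biogenesis, was high in 1 library of each group, at 23.05 CPM in untreated 1 (others 2.50 to 5.76) and 30.27 CPM in LPS 6 (others 0.746 to 2.42), and its log2 fold change of -0.01 has a standard error of 0.90. In all, 0 of 16 regulators were called, beside 3.77% of all genes tested, with a median of 0.05.

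The other genes of the pathway gave 1 call, where 3.77% of all genes tested were called. Among 47 tested assembly factors 0 were called (median 0.05), with Higd2a, a factor of complex IV, at 0.23 (edgeR adjusted p = 0.184) and Cox18, which inserts a mitochondrially encoded subunit, at 0.18 (adjusted p = 0.230). Among 23 electron carrier and transport genes 1 was called: Coq8a, a kinase-like gene of ubiquinone synthesis, fell. It had 27.6, 27.6, 27.4, 29.1 and 34.6 CPM untreated and 20.2, 19.3, 23.1, 22.2 and 23.8 CPM with LPS. The groups did not overlap, as in 5.71% of all genes tested. The log2 fold change was -0.43 ± 0.09 (edgeR adjusted p = 0.0149, and 0.0152 to 0.0437 without single libraries). Cytochrome c (Cycs, 0.16) and the cytochrome c1 gene Cyc1 (0.12) did not pass. The ADP/ATP carrier gene Slc25a5 (0.16) reached an unadjusted p of 0.0359 and an adjusted p of 0.283.

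Mitochondrially encoded subunits leaned the other way from the nuclear ones. Of 12 tested, 2 had fold changes above 0, the median was -0.22 and 0 were called. These shares mix genes of very unlike level. The 2 above 0 were mt-Co2 and mt-Atp6, at untreated means of 20.2 and 17.6 CPM. Also low, but below 0, were mt-Co3 (23.6 CPM), mt-Nd6 (5.50), mt-Nd4l (3.61) and mt-Nd3 (0.517). Why these counts were so far below those of mt-Co1 was not tested. The most abundant, mt-Co1, the catalytic subunit of complex IV, had means of 11980 and 9935 CPM (-0.27, edgeR adjusted p = 0.475). The summed level of the mitochondrially encoded subunits overlapped between groups, at 25010 ± 5711 CPM untreated and 20780 ± 4729 CPM with LPS. Mitochondrial transcripts made up 2.54 ± 0.58% and 2.11 ± 0.48% of gene counts (two-sided exact permutation p = 0.214). The genes outside the rule were close to the members: Ndufb1-ps had 21.8 ± 2.07 and 26.2 ± 3.05 CPM (0.27, adjusted p = 0.162), Usmg5 42.0 ± 5.67 and 41.4 ± 5.12 (-0.02) and Atpif1 72.2 ± 4.96 and 75.7 ± 12.02 (0.07).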

How the data were processed

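RNA-seq libraries of sorted beta cells from 5 untreated and 5 LPS-treated islet cultures were analysed, with groups and numbers from the sample titles. The authors deposited a table of raw counts for each library, with Ensembl identifiers. Per the submitters' processing notes, the build was GRCm39 and the tools were STAR, HTSeq, FastQC, Trimmomatic, SAMtools and DESeq2. Versions, annotation and strand setting were not given in the sources used here, so overlapping or antisense genes may share counts. Rows naming no gene were left out (reads outside genes 12.2 ± 1.08% untreated, 11.0 ± 1.36% LPS). Members and lists were chosen with earlier results of these data known.

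Symbols, gene types and transcript lengths came from GENCODE M21 (GRCm38), matched by identifier, and no coordinates were mixed with GRCm39. Genes were filtered (filterByExpr, minimum count 10), scaled by TMM and tested with edgeR 4.0.16 (quasi-likelihood F test, no covariate) in R 4.3.3, with Benjamini-Hochberg adjustment over 15942 genes. The procedure was tested on simulated data. CPM are counts scaled to the TMM-adjusted library total. Pseudogene copies were searched with BLAST 2.17.0. Named members were, in each complex, the most abundant and those with the lowest and highest fold change, all with an unadjusted p under 0.05, and the tissue isoforms; further members are named by role. One member stayed in all fits and counts and is not reported here. Alternatives were other scalings and filters, DESeq2 1.42.0, limma-voom (limma 3.58.1), 1 surrogate variable (sva 3.50.0) and leaving out each library. Figures used Python 3.11.15, pandas 2.3.3 and matplotlib 3.10.9.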

Additional observations from a re-analysis of the deposited data

Results flagged for a closer look

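Among 170 groups of 5 libraries (the tested members and the summed levels, in each treatment), there were 16 in which 1 library lay far from the other 4 by Dixon's criterion, which chance meets in about 1 group in 20. The members vary together within a library, so these groups are not independent and the count carries no test. Untreated 5 was high in 9: Ndufa11 (61.4 CPM, others at most 50.1), Ndufv1 (100.6, others at most 80.6), Ndufv3 (90.2), Sdhb (76.1), Cox4i1 (165), Cox6a2 (3.12), Atp5d (141), Atp5e (140) and Atp5o (14.5). LPS 10 was high in 4: Ndufb3 (34.9 CPM, others at most 27.7), Ndufv2 (75.4), Cox6a2 (5.64) and Cox7b (71.7). LPS 8 was low for Atp5l (22.6 CPM, others at least 66.0), LPS 6 for Ndufb6 (23.5, others at least 25.6) and LPS 9 for Sdha (192, others at least 202). Untreated 5 and LPS 10 were also the highest libraries of their groups in the summed level of the members, and LPS 8 was low in other genes with pseudogene copies.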

How the results depend on the processing

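Of 19 other settings, 10 of which left out a library, 3 changed the number of genes called by over 1.5 times from 601: DESeq2 (938), limma-voom with quality weights (994) and edgeR with 1 surrogate variable (1335). The other 6 with all libraries gave 580 to 641, and leaving out single libraries 401 to 624. Members called were 2 with the weights, 1 with the surrogate variable, 0 to 1 with single libraries left out and 0 in the rest. With single libraries left out the median of the members ran from 0.02 to 0.13 and that of complex I from -0.02 to 0.12. Small values changed sign for 6 of 30 named members. Uqcrfs1 was at -0.0076 when the 20 most abundant genes were left out of library sizes, and at -0.028 to 0.070 with single libraries left out. Atp5g2 was at -0.045 and Ndufa4l2 at 0.017 with the weights. With single libraries left out, Atp5g2 ran from -0.014 to 0.169, Cox4i1 from -0.010 to 0.093, Cox8a from -0.0017 to 0.109 and Ndufa4 from -0.0052 to 0.127, each lowest without LPS 10. The cause was not tested. No paired analysis was possible because the groups share no replicate number in the labels. Among tested members Ndufs5, Ndufa4l2, Atp5l and Cox6a2 had the largest standard errors (0.37, 0.33, 0.24 and 0.23), and 7 members at 0 to 28 summed counts in a group were not tested.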
